A study of Mus musculus with 6 samples.

Results

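The genes described here encode MHC class I molecules and the proteins that load them with peptides. The 10 members, chosen by gene symbol, were H2-K1, H2-D1, H2-T23, B2m, Tap1, Tap2, Tapbp, Psmb8, Psmb9 and Nlrc5. All 10 were among the 25215 genes of the deposited table, and all 10 passed the filter that left 11264 genes for testing. MHC class I molecules display peptides from inside the cell to CD8 T cells. Proteasomes cut proteins into peptides, the TAP transporter carries the peptides into the endoplasmic reticulum, and tapasin helps to place them on a heavy chain paired with beta-2-microglobulin. B16 melanoma cells are known for low surface class I in culture and for raising it when exposed to interferon gamma.

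The study sequenced single cells from tumors grown in C57BL/6 mice, with 3 conditions and 2 tumors each. B16 tumors came from the melanoma line B16-F10 and were untreated. B16PD1 tumors came from the same line in mice that received anti-PD1 at 200 μg a dose, first on day 5 and again on days 8 and 11. R499 tumors were untreated as well and grew from a resistant line of the same name. Its source was the relapse of a B16 tumor that had been given radiation with anti-CTLA4. Every mouse received 50000 tumor cells under the skin, tumors were taken on day 15, and CD45-negative cells were sorted, a gate that removes most immune cells. Mouse ages were not given in the sources used here. The 6 tumors are named by condition and by the animal number in the table: B16007, B16008, B16PD1000, B16PD1002, R499015 and R499016. Since each condition holds 2 tumors, tests compare tumors and not cells.

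Of 602 cells, 507 had over 1000 genes with TPM (a length-scaled share of a cell's transcripts) above 0 and under 10% mitochondrial TPM. They comprised 91, 86, 86, 88, 81 and 75 cells in the order of tumors above. Retained cells had a median of 3647, 3388.5, 3807.5, 3838.5, 3141 and 3682 genes detected. The table holds TPM and no read counts, so the depth in reads is unknown. The 602 column names carried 602 different well positions, so no well was shared between tumors. The 2 tumors of a condition shared the same 18 rows of wells, and no row held cells of more than 1 condition, so rows of wells and conditions cannot be told apart. All 7 melanocyte lineage markers were detected in every tumor, and their summed mean TPM was 14048 to 17188.

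Markers of immune cells were present at a low level that differed between tumors. Of 25 such markers, 10 were at 0 in all retained cells, among them Cd3g, Cd8a, Nkg7 and Flt3. The summed mean TPM of the list was 389 in B16007, 21.4 in B16008, 40.2 in B16PD1000, 287 in B16PD1002, 20.8 in R499015 and 18.4 in R499016. Without the class II genes H2-Aa and H2-Ab1 it was 207, 20.3, 39.3, 233, 9.38 and 7.31, so these carried much of the sum in B16007 and in both R499 tumors. Lyz2, a lysozyme of myeloid cells, was the most abundant gene of the list over the 6 tumors, with a mean TPM of 86.1 in B16007 and 114 in B16PD1002 and at most 1.62 in the other 4. The 2 high means rest on 2 of 91 cells of B16007 and 6 of 88 cells of B16PD1002. Cells with at least 2 of the markers numbered 8, 1, 2, 8, 2 and 3. Tyrp1, Dct and Pmel were above 0 in all 507 retained cells, so these cells held melanocyte transcripts too. Of the list, H2-Aa was detected in 50 of 507 cells and Ptprc in 1. Whether cells with at least 2 of the markers were immune cells was not tested, so leaving them out does not isolate a share of immune cells. The 10 markers of fibroblasts, endothelium and keratinocytes summed to a mean TPM of at most 2.14 in any tumor, and 6 of them, including Col1a1, Cdh5 and Krt14, were at 0.

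B2m and the classical heavy chains were the abundant members, and the other 7 were detected in fewer cells. B2m, the light chain shared by all class I molecules, had a mean TPM of 2646 over the 6 tumors and was detected in 98.4% of the 507 cells. The classical heavy chains H2-D1 and H2-K1, with mean TPM of at most 445 and 332 in a tumor, were detected in 88.2% and 70.8% of cells. Tapbp, which encodes tapasin, was detected in 39.6% of cells, and H2-T23, a nonclassical heavy chain read by receptors of natural killer cells, in 27.6%. The immunoproteasome subunits Psmb8 and Psmb9 were detected in 24.7% and 19.3% of cells. The transporter chains Tap1 and Tap2 were detected in 5.33% and 4.34%, and Nlrc5, the transactivator of class I genes, in 3.75%. TPM is scaled by transcript length, so these levels may be set against each other. A TPM of 0 in a cell may be a transcript that was missed at this depth.

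**Figure D1:**
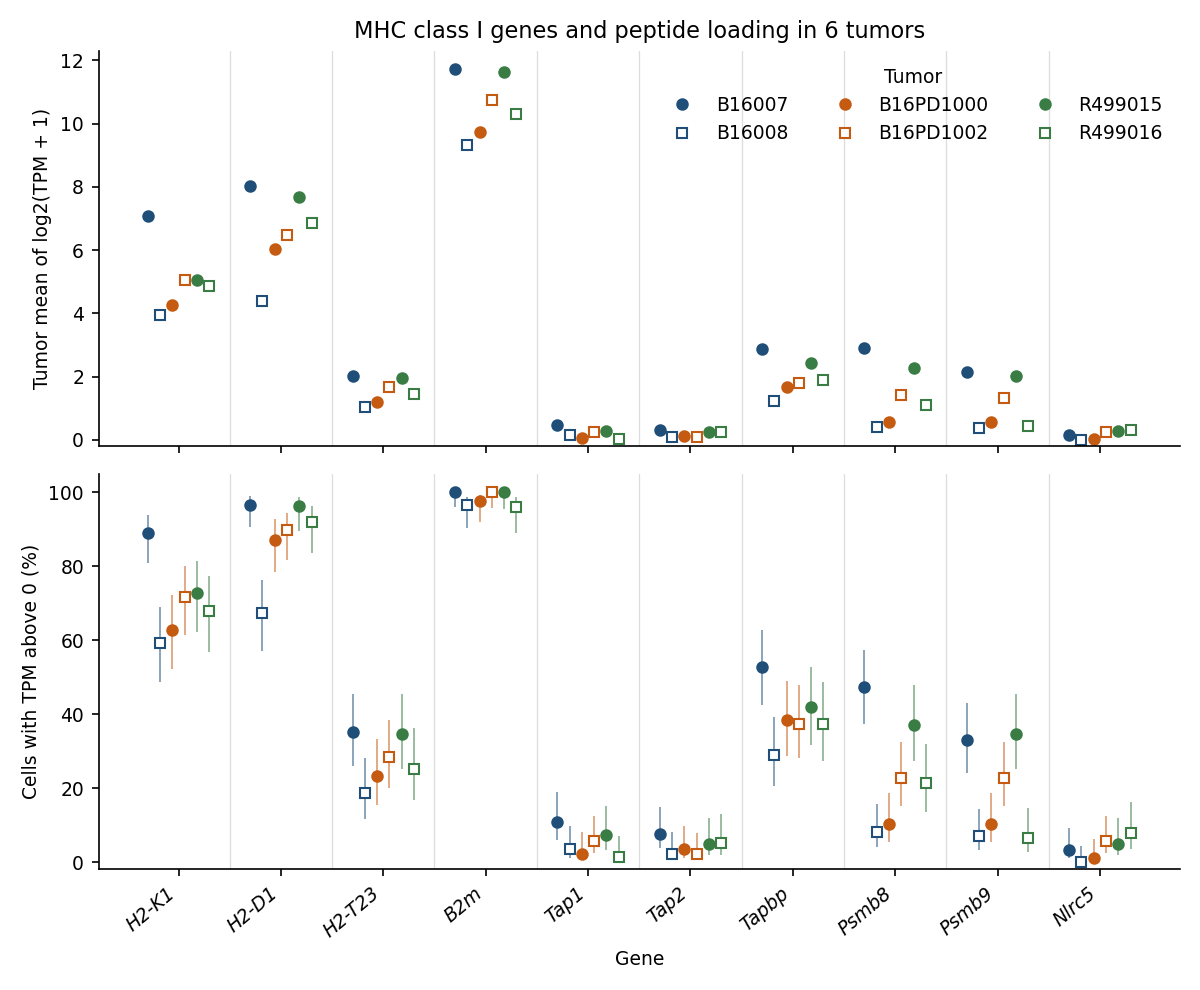
The upper panel plots the tumor mean of log2(TPM + 1) over retained cells, and the lower panel the percent of cells with TPM above 0 with its 95% Wilson interval, for each of the 10 genes. Colors mark the 3 conditions and symbols the 2 tumors of each, and B16007 (filled blue circle) has the highest mean for 9 of the 10 genes.

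In tumor means of log2(TPM + 1), H2-K1 and H2-D1 were the members that differed most between the 2 untreated B16 tumors. The tumor mean of log2(TPM + 1) of H2-D1 was 8.02 in B16007, 4.39 in B16008, 6.04 in B16PD1000, 6.49 in B16PD1002, 7.69 in R499015 and 6.86 in R499016. The B16 tumors thus formed both ends of the order, and the treated and R499 tumors lay between them. H2-K1 was at 7.08 in B16007, 3.95 in B16008, 4.26 in B16PD1000, 5.07 in B16PD1002, 5.06 in R499015 and 4.87 in R499016. Only B16007 stood apart for H2-K1, and the other 5 tumors lay between 3.95 and 5.07. In mean TPM, B16007 exceeded B16008 by 4.68-fold for H2-D1 and by 3.24-fold for H2-K1 (332 against 103). The order of members was different on that scale. Leaving aside Tap1, Tap2 and Nlrc5, detected in few cells, the fold was larger than that of H2-D1 for 3 members. These were Psmb8 (mean TPM 61.1 against 2.65), Psmb9 (6.53-fold) and Tapbp (5.35-fold). B2m (3.79-fold) lay above H2-K1, and H2-T23 (2.16-fold) lay below it. The share of cells with H2-D1 was 96.7% in B16007 (95% Wilson interval 90.8 to 98.9) and 67.4% in B16008 (57.0 to 76.4), and that with H2-K1 was 89.0% (80.9 to 93.9) and 59.3% (48.7 to 69.1). Those intervals cover counting error between cells of 1 tumor only.

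B2m was at a far higher level, with the B16 tumors again at both ends. Its tumor mean of log2(TPM + 1) was 11.72 in B16007, 9.32 in B16008, 9.75 in B16PD1000, 10.76 in B16PD1002, 11.64 in R499015 and 10.32 in R499016. In each condition 1 tumor was over 1 log2 unit above the other, by 2.40, 1.01 and 1.32 for B16, B16PD1 and R499. In B16PD1 this gap was 0.71 with over 2000 genes per cell, 0.86 without cells holding at least 2 immune markers, and 1.13 with all deposited cells. All cells of B16007, B16PD1002 and R499015, the higher tumor of each condition, had TPM above 0 for B2m. The SD of log2(TPM + 1) between cells was 1.06, 1.48 and 1.11 in those tumors, against 2.15 in B16008, 1.99 in B16PD1000 and 2.32 in R499016, a gap that came from 3, 2 and 3 cells at 0. Over cells with B2m detected the latter were 1.22, 1.31 and 0.97, so the higher tumor was not the narrower in B16PD1 and R499. H2-T23 ran from 1.03 in B16008 to 2.02 in B16007, and was detected in 18.6% to 35.2% of the cells of a tumor.

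The immunoproteasome subunits also differed between tumors. Psmb8, which takes the place of Psmb5 in the immunoproteasome, had a tumor mean of log2(TPM + 1) of 2.90 in B16007, 0.40 in B16008, 0.57 in B16PD1000, 1.42 in B16PD1002, 2.27 in R499015 and 1.10 in R499016. Its mean TPM was 61.1 in B16007 and 2.65 in B16008, and it was detected in 47.3% and 8.14% of their cells. Psmb9, which takes the place of Psmb6, was at 2.15, 0.38, 0.55, 1.33, 2.03 and 0.44 in the same order of tumors. The share of cells with Psmb9 was 34.6% in R499015 (95% Wilson interval 25.1 to 45.4) and 6.67% in R499016 (2.88 to 14.7), intervals that count cells and not tumors. Psmb5 and Psmb6, the subunits of the standard proteasome, were far more even, with tumor means of 8.51 to 9.50 and 8.42 to 8.99.

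The genes of peptide transport and loading other than the proteasome were at low levels. Tapbp was at 2.89 in B16007, 1.22 in B16008, 1.68 in B16PD1000, 1.80 in B16PD1002, 2.44 in R499015 and 1.89 in R499016. Tap1 ranged from 0.02 in R499016 to 0.47 in B16007 and Tap2 from 0.08 in B16PD1002 to 0.31 in B16007, with 1 to 10 cells positive for Tap1 and 2 to 7 for Tap2 in a tumor. Nlrc5 was found in 19 of 507 cells. It was detected in 3 of 91 cells of B16007, 0 of 86 cells of B16008, which allows a share of cells with detection of up to 3.49%, 1 of 86 cells of B16PD1000, 5 of 88 of B16PD1002, 4 of 81 of R499015 and 6 of 75 of R499016. At this depth no difference between tumors can be read from so few cells of Tap1, Tap2 or Nlrc5.

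**Figure D2:**
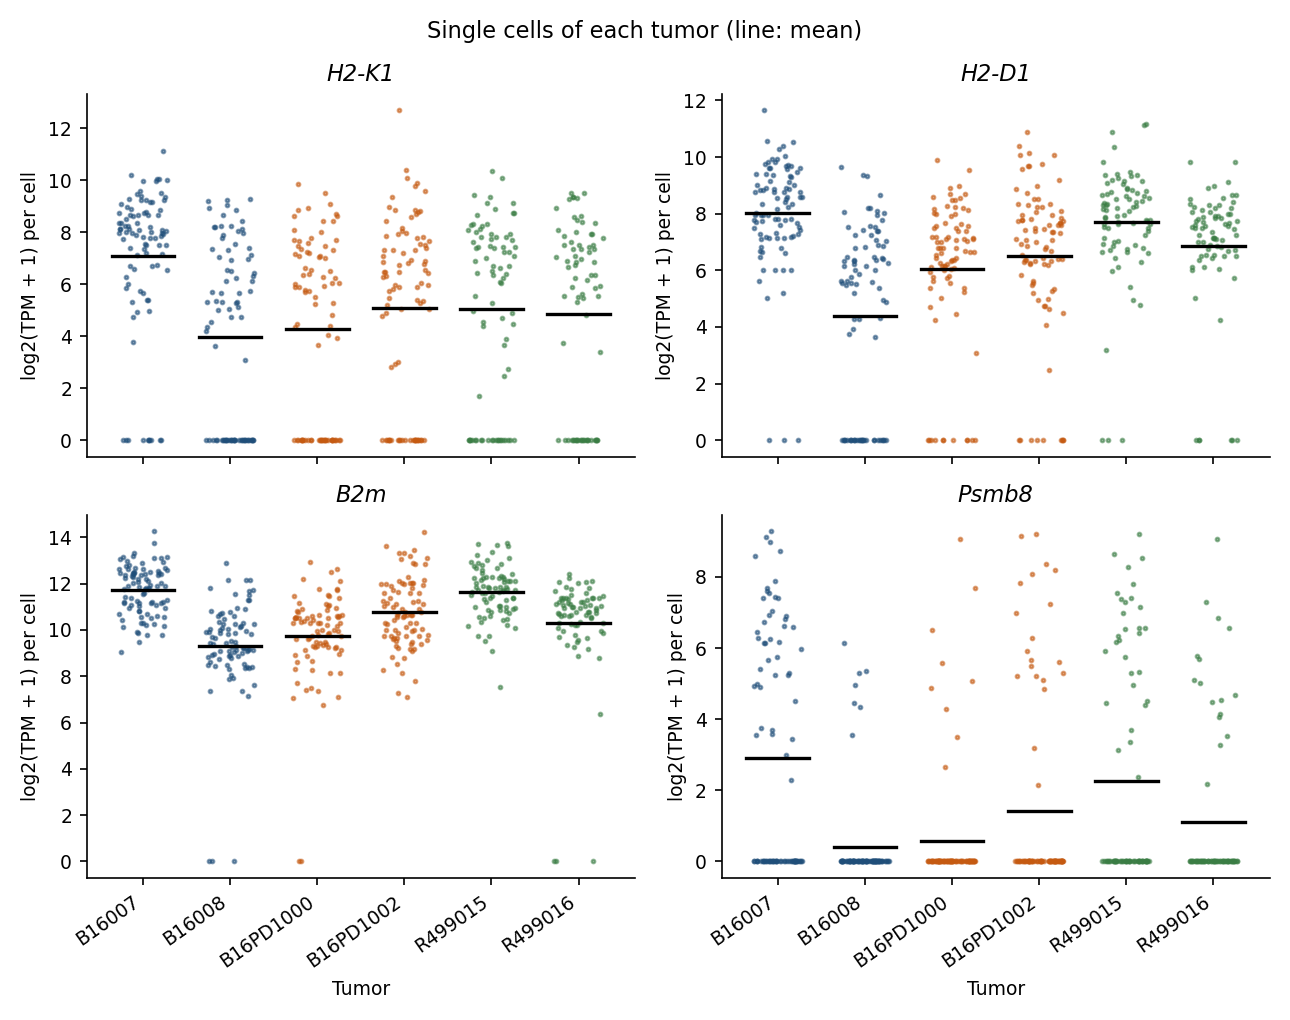
Each point is 1 cell, the vertical axis is log2(TPM + 1) of H2-K1, H2-D1, B2m or Psmb8, and black lines are tumor means, with cells at 0 lying on the lowest line of each panel. B2m forms a compact cloud with means of 9.32 to 11.72, while Psmb8 is at 0 in most cells and its tumor mean follows the share of cells above 0.

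Neither contrast between conditions called any member. Under limma, with Benjamini-Hochberg adjustment over all genes tested, 0 of 10 members passed an adjusted p of 0.05 in B16PD1 minus B16, where 0 of 11264 genes (0%) passed. In R499 minus B16, 0 of 10 members passed, where 7 genes (0.0621%) passed. At an unadjusted p under 0.05 the counts were 0 of 10 members beside 4.69% of all genes in B16PD1 minus B16, and 1 of 10 members, Nlrc5, beside 10.5% of all genes in R499 minus B16. The tumors of the 2 conditions did not overlap for 0 of 10 members in B16PD1 minus B16, where this held for 33.3% of all genes. In R499 minus B16 they did not overlap for 1 of 10, again Nlrc5, where this held for 41.7% of all genes. The contrasts share the B16 tumors.

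The median difference of the 10 members was -0.21 in B16PD1 minus B16, beside 0.01 over all genes tested. In R499 minus B16 it was 0.08, beside -0.07 over all genes. Nlrc5 had a mean of 0.07 ± 0.10 (SD, n = 2) in B16 and 0.29 ± 0.02 (n = 2) in R499, a difference of 0.22 (SE 0.09, limma adjusted p = 0.405). This rests on 3 of 177 positive cells in B16 and 10 of 156 in R499. Over the alternatives the difference of Nlrc5 ran from 0.09 to 1.25. With log2 of the mean TPM, a mitochondrial limit of 5% or no trend, 0 members had an unadjusted p under 0.05 in this contrast. H2-D1 was at 6.20 ± 2.57 (SD, n = 2) in B16, 6.27 ± 0.32 in B16PD1 and 7.28 ± 0.59 in R499. Its difference in R499 minus B16 was 1.08 (SE 0.72, 95% interval -0.45 to 2.60, limma adjusted p = 0.625), and it was 3.33 with genes detected as a covariate and 0.40 with log2 of the mean TPM. H2-K1 was at 5.52 ± 2.21 in B16, 4.67 ± 0.57 in B16PD1 and 4.96 ± 0.13 in R499, with differences from B16 of -0.85 (SE 0.65, limma adjusted p = 0.989) and -0.56 (SE 0.65, limma adjusted p = 0.795). B2m was at 10.52 ± 1.70 in B16, 10.25 ± 0.71 in B16PD1 and 10.98 ± 0.94 in R499. For all 3 genes the range of the B16 tumors held the other 4 tumors. In B16PD1 minus B16 the 95% intervals of the difference ran from -1.46 to 1.59 for H2-D1 and from -1.43 to 0.89 for B2m.

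The 2 B16 tumors decided the sign of most member differences. Without B16007, H2-D1 passed the threshold in R499 minus B16 (difference 2.89, SE 0.44, limma adjusted p = 0.0194, over a range of 0.0194 to 0.918 in all alternatives), and the differences of 6 of 10 members had an unadjusted p under 0.05, beside 1004 of 11264 genes. Without B16008, the difference of H2-D1 in the same contrast was -0.74, and in B16PD1 minus B16 the differences of 8 of 10 members had an unadjusted p under 0.05, beside 504 of 11264 genes, with none past the adjusted threshold. The counts in the other contrast were 2 of 10 in B16PD1 minus B16 without B16007, beside 654 genes, and 3 of 10 in R499 minus B16 without B16008, beside 1018 genes. In these fits the lone B16 tumor was assumed to vary like the other conditions.

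Tumors of 1 condition differed in the level of the members as a group. B16007 had the highest mean of the 6 tumors for 9 of 10 members, beside 22.5% of all genes tested, and B16008 the lowest for 8 of 10, beside 19.5%. B16007 was over 1 log2 unit above B16008 for 6 of 10 members, beside 2.21% of all genes. B16PD1002 was above B16PD1000 for 9 of 10 members, beside 46.9% of all genes, and R499015 above R499016 for 8 of 10, beside 42.9%. Median differences of 1.71, 0.47 and 0.53 in the B16, B16PD1 and R499 tumors stood beside 0.06, -0.02 and -0.04 over all genes. The tumors to compare were read from these same values, so the counts describe the tumors and carry no test. They include Tap1, Tap2 and Nlrc5, for which no difference between tumors can be read.

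Depth and immune markers were set beside that gap. Without the cells holding at least 2 immune markers, the median member difference was 1.53 in B16, 0.22 in B16PD1 and 0.55 in R499, and H2-D1 lay 3.60 higher in B16007 than in B16008, beside 3.63 with all cells. In B16PD1 the differences were smaller without those cells, at 0.21 for H2-D1 (0.45 with all cells), 0.23 for H2-T23 (0.48), 0.46 for Psmb8 (0.85) and 0.41 for Psmb9 (0.78). Cells were also split at the overall median of genes detected, with differences given for H2-K1, H2-D1, B2m and Psmb8 in that order. Above the median, B16007 lay over B16008 by 2.22, 2.74, 2.25 and 3.24, and among the other cells by 3.64, 4.23, 2.46 and 1.73. B16PD1002 lay over B16PD1000 by 0.41, 0.0053, 0.67 and 1.06, and among the other cells by 1.28, 0.99, 1.41 and 0.55. R499015 lay over R499016 by 0.49, 0.61, 1.03 and 1.46, and among the other cells by 0.08, 1.19, 1.73 and 1.32. This split of cells was chosen after the tumor means had been seen. The share of the variance between cells that lay between tumors was 21.4% for B2m, 18.8% for H2-D1, 11.4% for Psmb8, 8.72% for Psmb9 and 8.39% for H2-K1. The median over the 10 members was 6.31%, beside 1.14% over all genes tested, so most of the variance lay within tumors for members as well.

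The balance of the classical heavy chains was examined after the tumor means had been seen. The mean over cells of the difference in log2(TPM + 1), H2-D1 minus H2-K1, was 0.93 in B16007, 0.43 in B16008, 1.78 in B16PD1000, 1.42 in B16PD1002, 2.64 in R499015 and 1.996 in R499016. The conditions did not overlap in this value, which has no test because it was chosen from the data. Among cells with both genes detected, the median difference was 0.35, 0.16, 0.16, 0.32, 1.03 and 0.52 in the same order, so B16 and B16PD1 did overlap there, and R499 was highest. The ratio of the mean TPM of H2-D1 to that of H2-K1 was 1.34, 0.93, 1.35, 1.01, 2.25 and 1.37, so B16 and B16PD1 overlapped in it too, and R499016 was close to B16007 and B16PD1000. The value of B16PD1002 depends on 1 cell with 31.7% of the H2-K1 of that tumor, and without this cell it was 1.45. B16PD1 then lay only narrowly above B16, with B16PD1000 at 1.35 and B16007 at 1.34, and it overlapped R499 (R499016 at 1.37). Leaving 1 cell out of B16007 gave up to 1.42 there. Cells with H2-D1 and without H2-K1 numbered 114, against 26 with H2-K1 alone and 333 with both.

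Cells without either classical heavy chain were few. They numbered 34 of 507 (6.71%), of which 31 had B2m above 0. B16008 held 15 of its 86 cells in that state (17.4%, 95% Wilson interval 10.9 to 26.8), and B16007 1 of 91 (1.10%, 0.194 to 5.96). The other tumors held 8 of 86, 5 of 88, 3 of 81 and 2 of 75. Some reads of these genes can be hard to assign: of the 50-base stretches of the longest protein-coding transcript of each, 8.79% of those of H2-K1 and 14.3% of those of H2-D1 also occur in transcripts of other genes, and for H2-T23 28.8% do. The gene sharing most with H2-K1 was H2-D1 (6.94%), and with H2-D1 it was H2-Q1. At 100 bases the shares were 0%, 4.64% and 7.28%. B2m, Psmb8 and Psmb9 had 0% at both lengths. The levels of the 3 heavy chains are uncertain to that extent, since the read length was not given in the sources used here.

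In the median over pairs, members varied together only weakly between the cells of a tumor, and in some tumors more than others. Correlations were taken on log2(TPM + 1) within each tumor after regression on the number of genes detected, over 75 to 91 cells that share a library preparation. The median Pearson r over the 45 pairs of members was 0.11 in B16007, 0.0022 in B16PD1000, 0.23 in B16PD1002, 0.11 in R499015 and 0.05 in R499016. It was 0.07 over 36 pairs in B16008, where Nlrc5 was at 0 in all cells. These medians include the pairs with Tap1, Tap2 or Nlrc5, which were detected in 27, 22 and 19 of 507 cells and carry little weight. Single pairs ran from -0.21 in R499016 to 0.51 in B16007. Over all pairs of genes tested the median lay between -0.01 and -0.0090 in every tumor. Pairs with r over 0.2 made up 31.1%, 8.33%, 4.44%, 71.1%, 26.7% and 8.89% of member pairs in B16007, B16008, B16PD1000, B16PD1002, R499015 and R499016, beside 3.96% to 5.51% of all pairs. Without the cells holding at least 2 immune markers the share was 31.1% in B16PD1002 and 33.3% in B16007, and the medians were 0.14 and 0.15, so B16PD1002 did not stand out there.

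By mean Pearson r, the strongest pairs joined the light chain with the classical heavy chains. By mean Spearman rank correlation, B2m with H2-D1 was highest (0.42), and H2-K1 with H2-D1 (0.30) exceeded B2m with H2-K1 (0.26). The mean r over the 6 tumors was 0.30 for B2m with H2-D1, 0.24 for B2m with H2-K1, 0.21 for H2-K1 with H2-T23 and 0.20 for H2-K1 with H2-D1. For B2m with H2-D1, r was 0.47 in B16007, 0.13 in B16008, 0.17 in B16PD1000, 0.45 in B16PD1002, 0.31 in R499015 and 0.25 in R499016. B2m with H2-K1 gave 0.51, 0.19, 0.13, 0.43, 0.23 and -0.04. Both pairs were highest in B16007 and B16PD1002, the tumors with the most immune markers, and without the cells holding at least 2 of these r was 0.47 and 0.39 for B2m with H2-D1 and 0.51 and 0.38 for B2m with H2-K1. Psmb8 and Psmb9 had a mean r of 0.19, from -0.15 in R499016 to 0.44 in R499015, and in B16PD1002 r was 0.35 with and 0.13 without those cells. Tap1 and Tap2, which form 1 transporter, had a mean r of 0.08, a value of little weight with 27 and 22 positive cells.

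**Figure D3:**
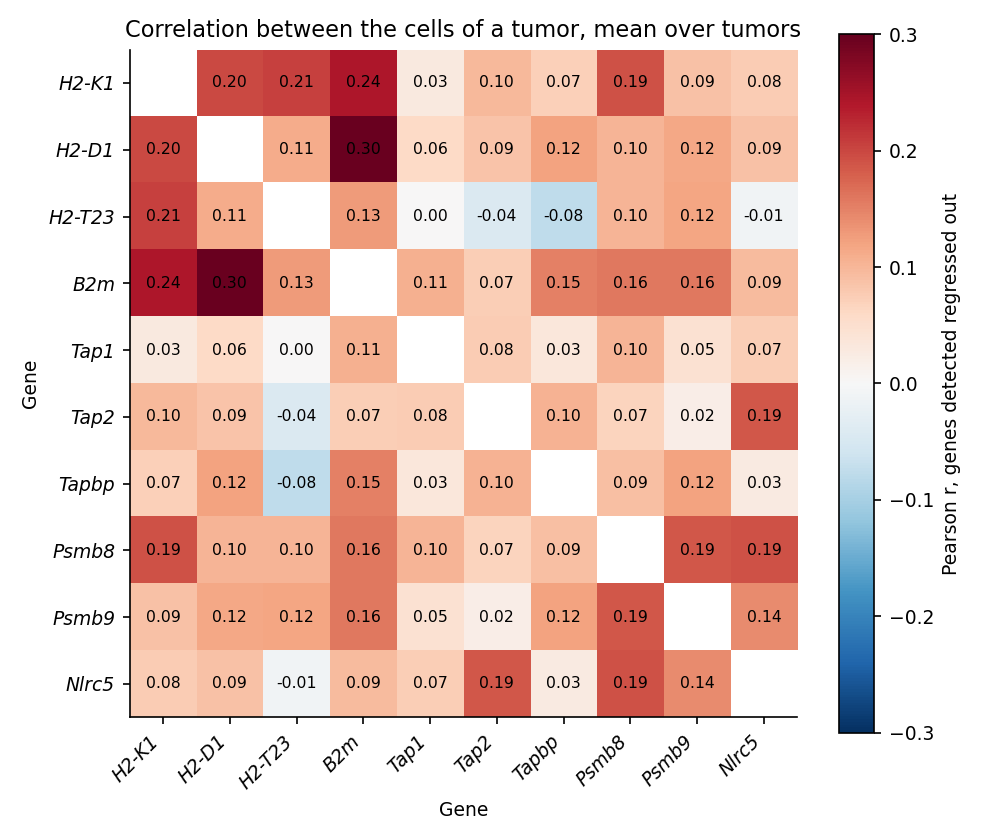
Rows and columns are the 10 genes and each cell holds the Pearson r of log2(TPM + 1) between cells of a tumor, after regression on the number of genes detected, averaged over the 6 tumors (5 for Nlrc5). The highest value is 0.30 for B2m with H2-D1 and the lowest -0.08 for H2-T23 with Tapbp.

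More members were detected in cells with more genes detected, with r of 0.50 to 0.73 in the 6 tumors. A cell of B16007 had a median of 5 members detected, a cell of B16008 or B16PD1000 3, and a cell of the other tumors 4. Taken against the mean of the other members, r averaged over tumors was 0.33 for B2m, 0.29 for H2-K1 and H2-D1, 0.28 for Psmb8 and 0.22 for Psmb9. It was 0.11 for Tap1 and for H2-T23.

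Among genes detected widely enough to be ranked, the 10 most like the members between cells included Cxcl10 of the interferon list and Psme1 of the wider class I list. Likeness was the mean over the 6 tumors of r with the mean of the members, each scaled to an SD of 1, among 6862 genes detected in at least 10% of the cells of every tumor. The median of those genes was -0.0020. Among the 10 highest were Tmem140 (0.27), Irgm1 (0.27) and Tgtp2 (0.25), the latter 2 encoding interferon-induced GTPases, Ifitm3 (0.27), which blocks virus entry, Oas1a (0.23), Rsad2 (0.22), Psme1 (0.22), a cap of the proteasome, H2-DMb1 (0.20), a class II loading gene, and Cxcl10 (0.20), a chemokine that draws T cells. Genes under that detection limit in any tumor were not ranked. Within the interferon list the mean r of such genes ran from 0.15 (Cd274) to 0.37 (Gbp3), so the ranking leaves out some higher values. Values of this size in sparse data describe these cells and no more, and the cells holding at least 2 immune markers were included.

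Of the 15 genes of the interferon list, 14 were tested and 0 passed the adjusted threshold in either contrast under limma. At an unadjusted p under 0.05 the counts were 0 in B16PD1 minus B16, beside 4.69% of all genes, and 1, Ifit3, in R499 minus B16, beside 10.5%. All 14 were higher in B16007 than in B16008 (beside 59.5% of all genes tested), in B16PD1002 than in B16PD1000 (beside 46.9%) and in R499015 than in R499016 (beside 42.9%), and all 14 were lowest in B16008 (beside 19.5%). The 3 most abundant were Ifi27, Bst2 and Cxcl10. Ifi27 had a tumor mean of log2(TPM + 1) of 9.20 in B16007, 7.39 in B16008, 7.85 in B16PD1000, 8.50 in B16PD1002, 10.01 in R499015 and 8.37 in R499016. Bst2, a membrane tether of viruses, was at 6.595, 3.69, 4.68, 4.92, 5.41 and 4.26, and Cxcl10 at 3.30, 2.76, 3.18, 4.70, 3.89 and 3.23. Within tumors the mean r with the members was above 0 for 14 of 14 (median 0.21), and over 0.2 for 8 of 14, beside 0.453% of all genes tested outside the members. In single tumors r ran from -0.12 (Isg15) to 0.75 (Rtp4), and the cells holding at least 2 immune markers were included.

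Of the 43 other genes of class I presentation and its regulation, 35 were tested and 0 passed the adjusted threshold in either contrast under limma. At an unadjusted p under 0.05 there were 2 in B16PD1 minus B16 (Nfya and Rfxap), beside 4.69% of all genes, and 3 in R499 minus B16 (Calr, H2-Q4 and Hspa5), beside 10.5%. The median difference was -0.08 in B16PD1 minus B16 and -0.26 in R499 minus B16. The 3 most abundant were Psmb5, Psmb6 and Hspa5, a chaperone of the endoplasmic reticulum. Their differences in R499 minus B16 were -0.50 (SE 0.28), -0.03 (SE 0.27) and -0.72 (SE 0.30), with limma adjusted p of 0.541, 0.982 and 0.403. Between cells, the mean r with the members was above 0 for 20 of 35 genes, beside 49.0% of all genes tested outside the members, with a median of 0.06.

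The positions of the members were taken from the GRCm38 annotation (GENCODE M21). Of the 10, 8 lie on chromosome 17 in the MHC region, B2m lies at chr2:122147686-122153083 on the plus strand, and Nlrc5 at chr8:94434356-94527272 on the plus strand. The classical heavy chain genes are apart, with H2-K1 at chr17:33996017-34000347 on the minus strand and H2-D1 at chr17:35262730-35267499 on the plus strand. Psmb9, Tap1, Psmb8 and Tap2 lie in that order within 34.3 kb, at chr17:34181987-34216321. Psmb9 and Tap1 lie on opposite strands and their annotated ends overlap, so reads from the shared bases cannot be assigned without strand. Tapbp is at chr17:33915899-33929292 and H2-T23 at chr17:36029773-36032855.

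Neighbors in the region differed less in median between tumors of 1 condition. Between the start of Tapbp and the end of H2-T23, 2117 kb, 79 genes were tested, 8 of them members. The median of B16007 minus B16008 was 1.71 over the 8 members and 0.16 over the 71 other genes, of which 5 (H2-DMb1, H2-Aa, Gpsm3, C2 and Clic1) were over 1. In B16PD1002 minus B16PD1000 the medians were 0.47 and -0.05, and in R499015 minus R499016 0.53 and -0.05. In tumor means of log2(TPM + 1), the 3 genes of the whole region with the largest difference between tumors of 1 condition were H2-D1 (3.63), H2-K1 (3.13) and Psmb8 (2.51), all in B16. Among the other genes they were H2-DMb1 (1.87), H2-Aa (1.58) and Lsm2 (-1.37), also in B16. H2-Aa is a class II gene and belongs to the immune markers above.

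**Figure D4:**
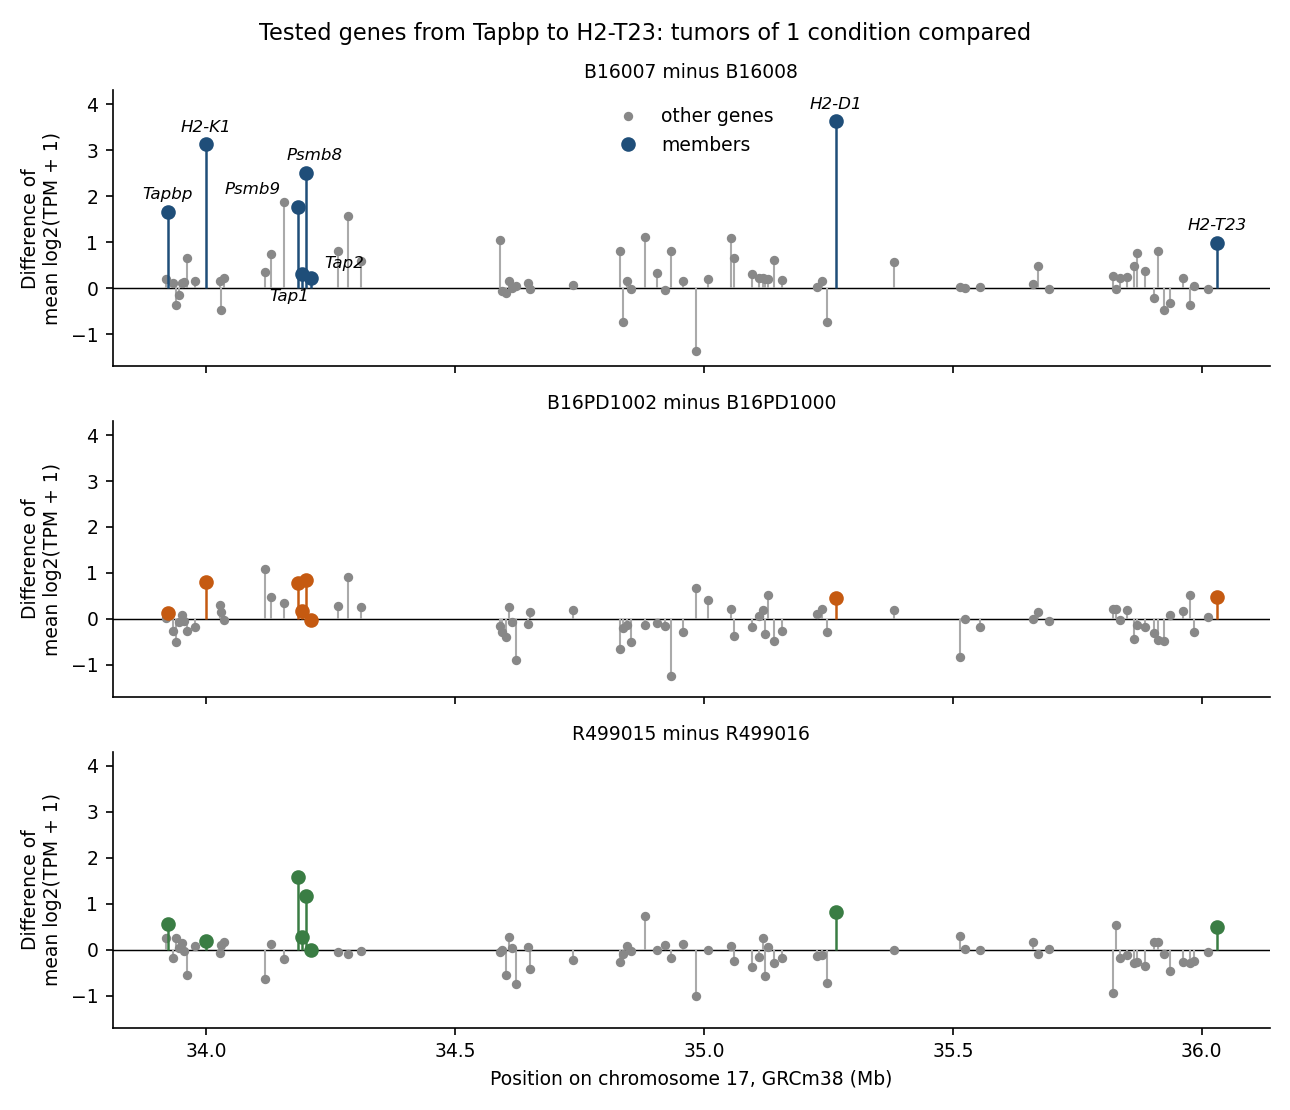
The horizontal axis is the position on chromosome 17 and the vertical axis the difference of tumor means of log2(TPM + 1) between the tumors of 1 condition, in 3 panels, for the 79 tested genes from Tapbp to H2-T23. Colored points are the 8 members and gray points the other 71 genes, and the tallest are H2-D1 (3.63) and H2-K1 (3.13) in the panel of B16.

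Promoters are shown because most members were highest in B16007 and lowest in B16008. RefSeq promoter sequences (GRCm38.p6) were found for 8 of the 10 members, with no entry for Tap2 and Nlrc5, and the 250 bases before each start were searched on both strands. The motifs were the GAS element TTCNNNGAA, the core AANNGAAA of elements bound by interferon regulatory factors (IRF), the half-site TGACG of cyclic AMP response elements (CRE), the CCAAT box, and the consensus site of NF-kappaB. The IRF core occurred in 4 of 8 members (B2m, H2-K1, H2-D1 and H2-T23), beside 21.3% of 32841 promoter windows. The CRE half-site occurred in 5 of 8 (B2m, H2-K1, H2-D1, Psmb9 and Tap1), beside 17.8%, and the CCAAT box in all but Psmb8, beside 33.9%. The NF-kappaB consensus occurred in 3 of 8 (B2m, H2-K1 and H2-D1), beside 7.25%, and the GAS element in Psmb8 alone, beside 7.02%. A match is a description of the letters and not a sign of binding.

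The windows of H2-K1 and B2m, from 5′ to 3′ on the strand of the gene, hold 4 of the 5 motifs, and capitals mark the matches. In H2-K1 the NF-kappaB match begins 111 bases before the start, the IRF core 90, the CRE half-site 41 and the CCAAT box 16, the last 3 read as TTTCACTT, TGACG and ATTGG. The promoter set holds a second start of H2-K1, at chr17:34000333, from which these distances are 125, 104, 55 and 30. A further CCAAT box begins 6 bases before that start. In B2m the IRF core begins 137 bases before the start, NF-kappaB 126, the CRE half-site 78 and the CCAAT box 53. H2-K1 covers chr17:34000348-34000597 on the minus strand and B2m chr2:122147437-122147686 on the plus strand, and apart from the last base of B2m both lie outside annotated exons.
H2-K1: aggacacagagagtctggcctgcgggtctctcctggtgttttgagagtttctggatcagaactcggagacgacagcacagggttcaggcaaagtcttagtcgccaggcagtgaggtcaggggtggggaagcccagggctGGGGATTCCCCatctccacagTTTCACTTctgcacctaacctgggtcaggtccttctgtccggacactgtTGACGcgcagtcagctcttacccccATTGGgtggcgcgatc
B2m: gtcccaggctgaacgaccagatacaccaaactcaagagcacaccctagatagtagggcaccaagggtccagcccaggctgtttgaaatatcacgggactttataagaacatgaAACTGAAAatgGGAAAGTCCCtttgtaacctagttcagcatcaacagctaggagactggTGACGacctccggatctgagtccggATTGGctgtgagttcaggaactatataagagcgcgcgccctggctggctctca

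H2-D1 holds the same motifs in nearly the same surroundings. Its window (chr17:35262844-35263093) lies inside the annotated gene (chr17:35262730-35267499), since the promoter set places the start at 35263094. Without gaps, its window was identical to that of H2-K1 at 166 of 190 compared bases (87.4%). Short stretches around the NF-kappaB match and the IRF core are set side by side, at chr17:34000439-34000468 and chr17:34000419-34000448 for H2-K1 and at chr17:35262913-35262942 and chr17:35262933-35262962 for H2-D1.
H2-K1, NF-kappaB: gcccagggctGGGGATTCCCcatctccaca
H2-D1, NF-kappaB: gcccagggctGGGGATTCCCcatctcctca
H2-K1, IRF: catctccacagTTTCACTTctgcacctaac
H2-D1, IRF: catctcctcagTTTCACTTctgcacctaac

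Psmb9 and Tap1 face away from each other and share their windows. The CRE half-site at chr17:34187470-34187474 begins 86 bases before the start of Tap1 and 144 before that of Psmb9 and is printed on the Tap1 strand (chr17:34187458-34187487). The GAS element of Psmb8 begins 97 bases before its start (chr17:34198088-34198117). As for H2-D1, the windows of Psmb8, Psmb9 and Tapbp lie inside their annotated genes, and those of H2-T23 and Tap1 do so in part.
Tap1, CRE half-site: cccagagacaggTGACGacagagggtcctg
Psmb8, GAS: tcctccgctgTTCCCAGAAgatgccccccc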

How the data were processed

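Single cells of 6 tumors were sequenced as full-length SMART-Seq libraries made in ICELL8 wells. Reads were aligned by the authors with STAR, and expression was estimated with RSEM and deposited as TPM per gene and cell (mm10, per the submitters' processing notes, versions not given). Column names carried the condition and an animal number and were grouped by condition. Cells with over 1000 genes and under 10% mitochondrial TPM, along with genes found at a TPM above 0 in over 5 such cells, were kept. The read filter of the study could not be applied to TPM. Tumor means of log2(TPM + 1) were compared with limma 3.58.1 (R 4.3.3, eBayes with trend, two-sided, Benjamini-Hochberg over 11264 genes, threshold 0.05) in 1 fit over the 6 tumors, so the conditions share an estimate of spread. A difference on the log2(TPM + 1) scale understates the change of genes at low levels. Shares, spread and correlations between cells are descriptions (Python 3.11.15, pandas 2.3.3, scipy 1.17.1). The calculations were tested on simulated data. Doublets were not sought. Gene identifiers matched the GENCODE M21 annotation for 25103 of 25215 genes. Named genes were all members, the 3 most abundant and those past the threshold of the pathway and interferon lists, the 10 genes most like the members between cells, and the 3 genes of the chromosome 17 region that differed most between tumors of 1 condition. Some items that the rule names are not reported here. Genes outside that rule are named where a count was 5 or fewer or where they mark the end of a range. Members and lists were chosen with earlier results of these data known. Alternatives varied the pseudocount, averaging, filters, covariate, trend, immune-marker cells, centring and the tumors included.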

Additional observations from a re-analysis of the deposited data

How the results depend on the processing

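No paired analysis was possible because the columns carry animal numbers and not the replicate numbers of the labels. Genes called in B16PD1 minus B16 numbered 0 in all settings that kept the 6 tumors and 0 to 2 when a tumor was left out (2 without B16007). Genes called in R499 minus B16 numbered 7, and 11 with a pseudocount of 0.1, 3 with a pseudocount of 10, 13 with genes in more than 10 cells, 22 with all deposited cells, 20 with over 2000 genes per cell and 28 with cells centred, where 20 of 28 were higher against 6 of 7. The count was 0 with log2 of the mean TPM, with no filter on genes, with genes detected as a covariate and without trend, and 0 to 10 when a tumor was left out (0 without B16008, 4 without R499015). The causes were not tested. Centring moved the median of all genes in R499 minus B16 from -0.07 to 0.03. H2-D1 in R499 minus B16, without B16007, was the only member difference past the threshold in any setting.

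Signs of member differences that had not been called changed in 39 of 360 comparisons, 27 of them with a tumor left out. In B16PD1 minus B16, H2-D1 was at -0.12 with a pseudocount of 10, -0.11 with log2 of the mean TPM, -0.14 with a mitochondrial limit of 5%, -0.0053 without cells with 2 or more immune markers and -1.28 with the covariate, and Psmb8 was at 0.47 with log2 of the mean TPM. In R499 minus B16, H2-K1 was at 1.52 with the covariate, Psmb9 at 0.070 with all deposited cells, 0.071 with cells centred and 0.60 with the covariate, and Tap2 at -0.014 and Psmb8 at -0.13 with a mitochondrial limit of 5%. With a tumor left out, differences in B16PD1 minus B16 ran from -2.42 to 0.71 for H2-K1, -1.75 to 1.88 for H2-D1, -0.59 to 0.39 for H2-T23, -1.47 to 0.93 for B2m, -0.31 to 0.0024 for Tap1, -1.15 to 0.52 for Tapbp, -1.90 to 0.60 for Psmb8, -1.21 to 0.56 for Psmb9 and -0.038 to 0.17 for Nlrc5. In R499 minus B16 they ran from -2.12 to 1.01 for H2-K1, -0.74 to 2.89 for H2-D1, -0.31 to 0.67 for H2-T23, -0.74 to 1.66 for B2m, -0.059 to 0.16 for Tap2, -0.72 to 0.94 for Tapbp, -1.22 to 1.29 for Psmb8 and -0.92 to 0.85 for Psmb9. The causes were not tested.

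The mean over tumors of the median correlation of members was 0.10 and ran from 0.07 to 0.13 over its 12 alternatives. The share of cells with each member moved by less than the SD between tumors in all 60 comparisons. The difference of H2-D1 and H2-K1 without the filter on cells, chosen after the data were seen, was 0.88, 0.36, 1.603, 1.41, 2.40 and 1.61 in the 6 tumors. TPM keeps no read depth, so a value of 0 in a cell has no limit of its own.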
